A study of Mus musculus with 8 samples.

Results

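The genes described here are 5 inhibitors of the cyclin-dependent kinases that drive the cell cycle. They are Cdkn2a, Cdkn2b, Cdkn2c and Cdkn2d of the Ink4-Arf family and Cdkn1b of the Cip/Kip family. They were found on the array as every probe whose RefSeq transcript accession belongs to 1 of these genes, which gave 7 probes among 55667. The genes were chosen by name, with earlier results of these arrays in view: they were selected on the difference of Cdkn2a between the groups of induced pluripotent stem cells (iPSCs), which was among those with the smallest p. The values of the 5 genes in that comparison are therefore given as a description, with no test.

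The 8 RNA samples came from undifferentiated mouse cells, all of the strain C57BL/6J, and each was read on its own one-colour array. OSKH iPSCs had 4 arrays, OSK iPSCs, the controls of the series, had 3, and the embryonic stem cell (ESC) line B6J-23 had 1. The labels do not spell out the letters, which are read here as the reprogramming factors Oct4, Sox2 and Klf4 without or with H1foo, an oocyte linker histone. How many lines, clones or cultures stand behind a group, and how the factors were delivered, is not in the labels, so an SD or p-value covers the spread between samples alone, which may be technical.

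Ink4 proteins bind Cdk4 and Cdk6 and keep them from pairing with D cyclins, so that the retinoblastoma protein stays active and holds back the E2F factors. Cip/Kip proteins such as p27, the product of Cdkn1b, bind complexes of Cdk2 with cyclins E and A. Cdkn2a is unusual in that it encodes an Ink4 protein, p16Ink4a, and, from a separate first exon read in another frame, Arf, which binds Mdm2 and so frees p53. The locus that Cdkn2a shares with Cdkn2b is described as silenced by Polycomb proteins in pluripotent cells and switched on in fibroblasts kept in culture. It is known as a barrier to reprogramming. In these samples the brighter probe of each of the genes Cdkn2a and Cdkn2b was well above background on all 8 arrays.

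The start sites of the neighbouring genes Cdkn2a and Cdkn2b are shown because these were the members whose levels were lower in the OSKH arrays. RefSeq lists 2 start windows for Cdkn2a, of which the upstream one is that of the Arf transcript, and 1 for Cdkn2b. Each window runs from 250 bases before to 50 bases after the start, 5′ to 3′ on the minus strand, from RefSeq on GRCm38.p6, at chr4:89294570-89294869, chr4:89282143-89282442 and chr4:89310983-89311282. Capitals mark the GC box GGGCGG on either strand.
Cdkn2a upstream (Arf) start: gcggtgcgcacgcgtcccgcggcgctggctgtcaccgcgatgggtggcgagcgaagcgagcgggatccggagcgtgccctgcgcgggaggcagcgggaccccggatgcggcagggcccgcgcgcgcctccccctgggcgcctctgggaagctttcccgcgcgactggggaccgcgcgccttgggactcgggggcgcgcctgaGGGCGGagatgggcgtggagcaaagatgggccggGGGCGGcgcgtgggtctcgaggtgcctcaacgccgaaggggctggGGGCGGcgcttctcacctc
Cdkn2a downstream (Ink4a) start: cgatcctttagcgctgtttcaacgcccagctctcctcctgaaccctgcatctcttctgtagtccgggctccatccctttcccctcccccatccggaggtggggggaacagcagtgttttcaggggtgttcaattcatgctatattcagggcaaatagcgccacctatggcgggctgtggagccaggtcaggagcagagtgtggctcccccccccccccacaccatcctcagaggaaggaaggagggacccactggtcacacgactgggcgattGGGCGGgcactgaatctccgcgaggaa
Cdkn2b start: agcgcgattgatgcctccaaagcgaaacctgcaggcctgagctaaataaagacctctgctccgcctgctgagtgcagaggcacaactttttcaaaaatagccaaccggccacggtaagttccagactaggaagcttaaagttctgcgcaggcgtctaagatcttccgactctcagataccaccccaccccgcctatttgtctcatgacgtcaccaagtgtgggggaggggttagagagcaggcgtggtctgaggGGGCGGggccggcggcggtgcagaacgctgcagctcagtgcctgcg
The upstream Cdkn2a window held 45 CpG dinucleotides, the downstream one 12 and that of Cdkn2b 18, against a median of 7 over 32851 windows of the same length. The GC box occurred 3 times in the upstream Cdkn2a window and once in each of the other two, and 35.7% of all windows held it. All 5 genes matched the RefSeq table, with 7 windows in all, and the E box CANNTG was in those of Cdkn2b and of the downstream Cdkn2c start (72.3% of all windows). The motif TTTNGCGC, searched on both strands as a form of the E2F site, was in the downstream Cdkn2a window alone among the 7, and in 1.4% of all windows. CCAAT, on either strand, was found once in the downstream Cdkn2a window, once in the downstream Cdkn2c window, once in that of Cdkn2d and 3 times in that of Cdkn1b, and 37.4% of all windows held it. Each motif was searched on both strands, and 1 pair of matches to different motifs overlapped, in the downstream Cdkn2a window. These matches describe the letters of the windows and no binding was measured.

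All levels below are log2 signals minus the 75th percentile of their array, so that 0 is the level of that percentile, and differences are in log2 units. Standard errors (SE) are those of limma fitted over all 22685 features, which are genes or, where unnamed, accessions. All arrays shared 1 slide, whose row 2 held the OSK arrays and, of the OSKH group, array 4 alone, while the other OSKH arrays and ESC lay in row 1. Group and slide row are thus partly confounded. The share of probes well above background ran from 51.4% to 59.0%. The pluripotent cell markers fixed for the check were Pou5f1, Sox2, Nanog, Zfp42, Esrrb, Dppa5a, Utf1 and Lin28a. They were well above background on all 8 arrays, 8 of 8 genes. Their summed level was 9.24 to 9.73 in OSKH, 9.36 to 9.52 in OSK and 9.64 in ESC. Dppa5a, at 8.27 to 8.80, was the brightest and weighs most in that sum. Esrrb ran from 4.64 (OSKH 2) to 6.86 (OSKH 1). Between OSKH and OSK, Nanog had the highest difference at 0.54 (SE 0.21, limma adjusted p = 0.752) and Utf1 the lowest at -0.08 (SE 0.12).

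By its brighter probe, Cdkn2a was lower on every OSKH array than on any OSK array. This probe, A_55_P2008437, listed under transcript NM_009877, was at 0.50, 0.12, 0.02 and 0.31 on OSKH 1 to 4, at 0.97, 1.07 and 1.22 on OSK 1 to 3 and at 0.55 on the ESC array. The groups did not overlap, and the ESC array lay in the gap between them, nearer to OSKH 1. The group means were 0.24 ± 0.21 (SD, n = 4) and 1.09 ± 0.12 (SD, n = 3), a difference of -0.85 (SE 0.13), or 1.80-fold more signal in OSK. Of all features, 4.19% had every OSKH array below every OSK array, a share from which nothing is read here, since this contrast chose the gene. The order from the lowest level was OSKH 3, OSKH 2, OSKH 4, OSKH 1, ESC, OSK 1, OSK 2 and OSK 3. The step from ESC to OSK 1 was 0.42, the steps from OSKH 2 to OSKH 4 and from there to OSKH 1 were 0.19 each, and the other neighbours in that order lay within the pooled SD of a group, 0.18. Within slide row 2, OSKH 4 was 0.78 below the mean of the OSK arrays, and OSKH 1 to 3 of row 1 were 0.88 below it. Between arrays of the same number the difference was -0.48, -0.96 and -1.19 for numbers 1, 2 and 3.

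The other Cdkn2a probe, A_55_P2008438, is listed under the same transcript and was near the detection limit. It was at -4.04, -4.89, -4.78 and -4.66 on OSKH 1 to 4, at -4.07, -3.45 and -3.49 on OSK 1 to 3 and at -4.80 on the ESC array. It was well above background on 1 of 4 OSKH arrays (OSKH 1), on 2 of 3 OSK arrays (OSK 2 and OSK 3) and not on the ESC array. OSKH 1 was slightly above OSK 1, so that the groups overlapped by this probe, whereas OSK 2 and OSK 3 were the highest of the 8. The difference of group means was -0.93, and -0.23 with normexp background correction, which compresses dim signals. Where the probes lie in the transcripts was not used here, so neither can be assigned to p16Ink4a or to Arf.

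Cdkn2b, which encodes the inhibitor p15Ink4b, lay lower in OSKH than in OSK by each of its probes. The brighter one, A_55_P1988183, was at -2.04, -1.13, -1.35 and -0.90 on OSKH 1 to 4, at -0.72, -0.76 and -0.63 on OSK 1 to 3 and at -0.95 on ESC. OSKH 1 was the lowest of the 8 arrays by 0.69, while OSKH 4 lay only 0.14 below OSK 2, so that the groups were separate by less than the SD of the OSKH arrays. The means were -1.35 ± 0.49 (SD, n = 4) and -0.70 ± 0.065 (SD, n = 3), a difference of -0.65 (SE 0.26). It was -0.42 without OSKH 1 and -0.20 with slide row as a block, a fit in which OSKH 4 alone is set against OSK. The dimmer probe, A_55_P1979526, was well above background on 2 of 4 OSKH arrays, on 3 of 3 OSK arrays and on ESC. Its levels were -4.91, -3.42, -3.61 and -4.10 on OSKH 1 to 4 against -3.36, -3.06 and -3.29 on OSK 1 to 3, with ESC at -3.81. Again every OSKH array was below every OSK array, by 0.064 at the closest, and OSKH 1 was lowest. OSKH 1, the lowest array for Cdkn2b, was the highest of its group for Cdkn2a. By these probes, 2 of the 4 genes in the fit had separate groups, where 7.34% of all features did in either direction, and nothing is read from that count.

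**Figure D1:**
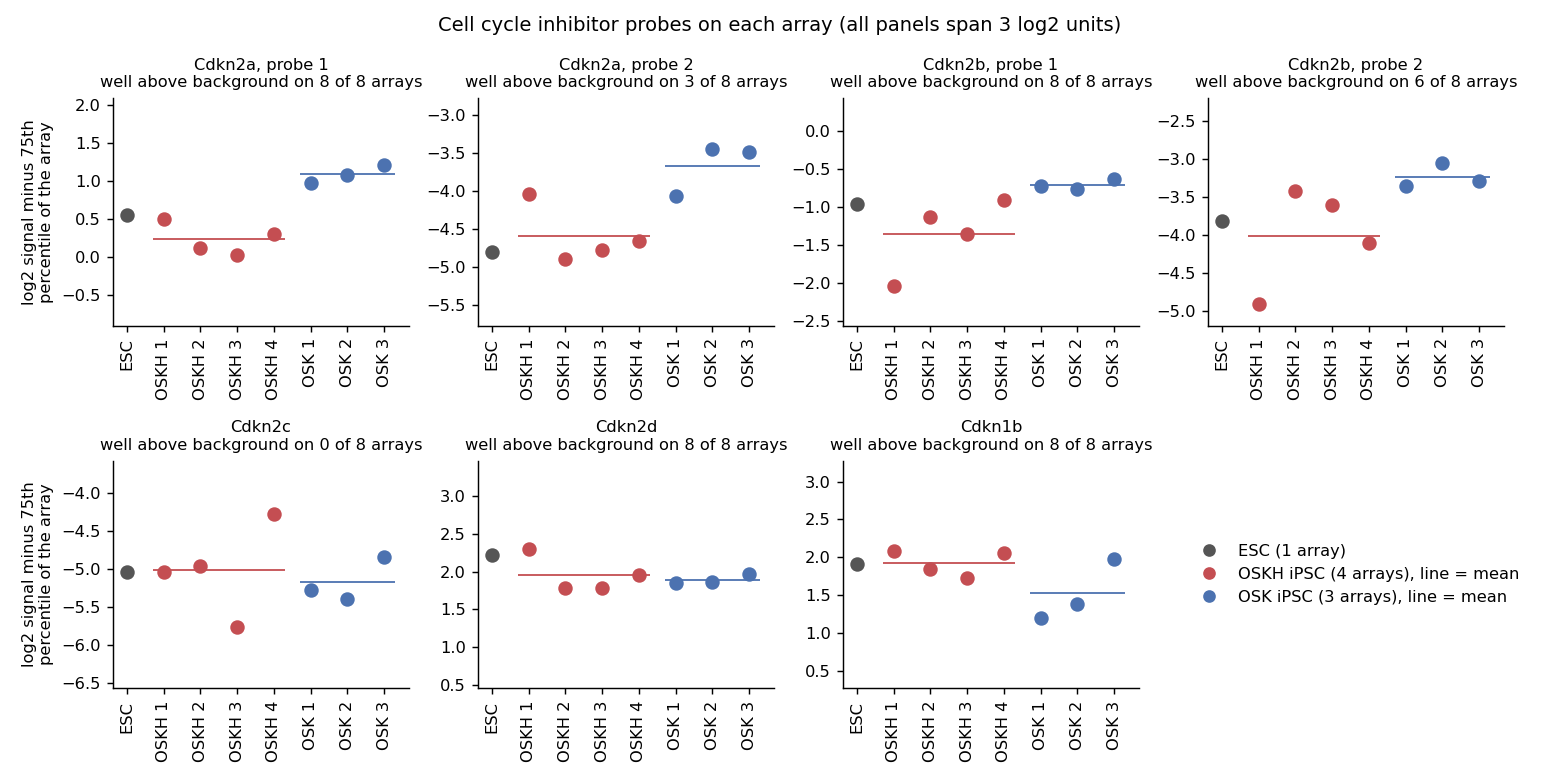
Level of each of the 7 probes on each array, as log2 signal minus the 75th percentile of the array, for ESC (grey), OSKH (red) and OSK (blue), with lines at the group means and every panel spanning 3 log2 units. Both Cdkn2a and Cdkn2b are higher on the OSK arrays by their first probe, Cdkn2d overlaps between the groups and Cdkn1b is low on OSK 1 and OSK 2 only.

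Cdkn2c, which encodes p18Ink4c, was not well above background on any of the 8 arrays, and its probe signal ran from -5.75 (OSKH 3) to -4.27 (OSKH 4). Values below background have no reliable order, and no fold is given. It did not pass the filter, which asks for at least 3 of 8 arrays well above background, so 4 of the 5 genes entered the fit.

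Cdkn2d, which encodes p19Ink4d and lies on another chromosome than Cdkn2a, showed no separation of the groups. It was at 2.30, 1.78, 1.78 and 1.95 on OSKH 1 to 4, at 1.85, 1.86 and 1.97 on OSK 1 to 3 and at 2.22 on ESC. The OSK arrays fell inside the range of the OSKH arrays, and OSKH 1 and ESC were the highest of the 8. The difference of means was 0.06 (SE 0.14), and it turned to -0.056 without OSKH 1.

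Cdkn1b, which encodes p27Kip1, was the member whose OSK arrays disagreed most. It was at 2.09, 1.85, 1.72 and 2.05 on OSKH 1 to 4 and at 1.92 on ESC, but at 1.20, 1.39 and 1.99 on OSK 1 to 3. OSK 1 and OSK 2 were the lowest of the 8 arrays, and OSK 3 lay within the OSKH range. The means were 1.93 ± 0.17 (SD, n = 4) and 1.53 ± 0.41 (SD, n = 3), a difference of 0.40 (SE 0.20) in the direction opposite to Cdkn2a. It was 0.24 without OSK 1 and 0.63 without OSK 3. Its within-group SD, pooled over both groups, was 0.29, against a median of 0.20 over all features, while that of Cdkn2a was 0.18, of Cdkn2d 0.19 and of Cdkn2b 0.38.

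The ESC comparison did not choose the members and could be tested, though with 1 ESC array it assumes that ESC arrays would vary like iPSC arrays, and it shares its iPSC arrays with the comparison above. Against the mean of the OSKH and OSK group means, ESC differed by -0.11 (SE 0.19) for Cdkn2a and 0.08 (SE 0.36) for Cdkn2b. The differences were 0.30 (SE 0.20) for Cdkn2d and 0.19 (SE 0.28) for Cdkn1b. None passed, with limma adjusted p-values of 0.979, 0.994, 0.948 and 0.976 in that order. Over all 22685 features limma called 0 (0%) at an adjusted p under 0.05 and 1201 (5.29%) at an unadjusted p under 0.05, and 0 of the 4 genes were among the latter. The ESC array lay outside the range of the 7 iPSC arrays for 26.6% of all features, above it for 18.5% and below it for 8.09%, and for 0 of the 4 genes. Set against each group alone, with no test, ESC was 0.31 above OSKH and 0.54 below OSK for Cdkn2a, and 0.40 above OSKH and 0.25 below OSK for Cdkn2b.

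The genes around Cdkn2a on its chromosome were read for the same comparison. Taking the 4 genes on each side that have a probe, in the RefSeq order of GRCm38.p6, the side that does not hold Cdkn2b has Mtap, the phosphorylase that salvages methylthioadenosine, then the lncRNA Wincr1 and the interferon genes Ifne and Ifna1. Mtap, the nearest of these, was at 1.26, 1.27, 1.37 and 1.23 on OSKH 1 to 4, at 1.39, 1.28 and 1.18 on OSK 1 to 3 and at 1.24 on ESC. Its groups overlapped fully, with a difference of 0.00 (SE 0.08, limma adjusted p = 0.999). Wincr1 and Ifne did not exceed background on any of the arrays, and Ifna1, whose family holds near-identical copies, differed by -0.02 (SE 0.14). On the other side, past Cdkn2b, Dmrta1 was well above background on 2 of 8 arrays and was not tested. Zfp352 was at 2.99, 2.97, 2.92 and 3.02 on OSKH 1 to 4 against 3.11, 3.19 and 3.12 on OSK 1 to 3, with ESC highest at 3.36. The Zfp352 groups did not overlap, at a difference of -0.16 (SE 0.07, limma adjusted p = 0.767). Elavl2, an RNA-binding protein of neurons, differed by -0.06 (SE 0.19). The differences of the 4 neighbours tested besides Cdkn2b thus ran from -0.16 to 0.00.

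**Figure D2:**
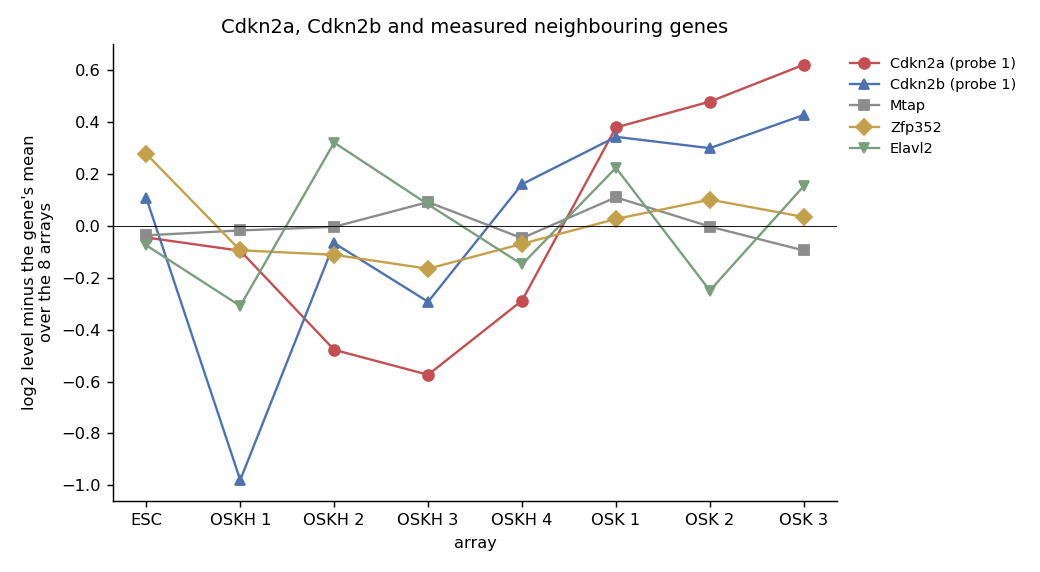
Level of Cdkn2a, Cdkn2b and the measured neighbours Mtap, Zfp352 and Elavl2 on each array (log2, each gene minus its own mean over the 8 arrays); lines only join the points of a gene. Cdkn2a and Cdkn2b are above 0 on all 3 OSK arrays, while Mtap, at 1.18 to 1.39 before centring, is nearly flat.

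The further inhibitors on the lists, Cdkn1a, Cdkn1c and Cdkn3, were measured on all 8 arrays. Cdkn1a, which encodes p21 and is a target of p53, was at 1.04, 1.87, 2.26 and 1.73 on OSKH 1 to 4, at 2.59, 2.23 and 2.11 on OSK 1 to 3 and at 1.38 on ESC. OSKH 3 lay among the OSK arrays, and the difference was -0.58 (SE 0.28, limma adjusted p = 0.808). Cdkn1c, the imprinted inhibitor p57, differed by 0.03 (SE 0.20) and Cdkn3, a phosphatase that acts on Cdk2, by 0.17 (SE 0.11). Neither passed, with limma adjusted p-values of 0.988 and 0.860. Against ESC the 3 genes differed by -0.64, -0.35 and 0.15, with 0 of 3 passing.

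The genes that these inhibitors act on or that act on them were taken from 9 lists of 95 genes, chosen with earlier results of these arrays known, of which 91 were tested. Limma called 0 of the 91 between OSKH and OSK at an adjusted p under 0.05 (smallest 0.732), against 0 (0%) of all features. At an unadjusted p under 0.05 there were 7, 4 higher and 3 lower in OSKH, where all features gave 6.48%. Every OSKH array was below every OSK array for 5 of the 91, or 5.49%, against 4.19% of all features. The reverse held for another 5, against 3.15%. These shares are near the background, and the median difference of the 91 was -0.0050, beside -0.013 over all features. Against ESC limma also called 0 of the 91 (smallest adjusted p 0.928), with 7 at an unadjusted p under 0.05, where all features gave 5.29%. The ESC array was above all iPSC arrays for 24 (26.4%, against 18.5% of all features) and below them for 3 (3.30%, against 8.09%).

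Of the direct targets of Ink4 proteins, 4 of 5 lay higher in OSKH, with a median of 0.27 that was 0.075 without OSKH 4. Cdk6 was at -3.32, -3.00, -3.47 and -3.32 on OSKH 1 to 4, at -3.66, -4.06 and -4.10 on OSK 1 to 3 and at -3.24 on ESC. It was dim, with 2 of 3 OSK arrays well above background, and differed by 0.66 (SE 0.16, limma adjusted p = 0.732), or by 0.24 with normexp. Cdk4, the kinase with a bright signal on every array (6.86 to 7.15), differed by -0.01 (SE 0.09). The D cyclins, which activate these kinases, differed by 0.27 (SE 0.23) for Ccnd1, 0.42 (SE 0.57) for Ccnd2 and 0.18 (SE 0.20) for Ccnd3. Without OSKH 4, on which Ccnd2 was at 0.99, the Ccnd2 difference was -0.0050. The ESC array lay above all 7 iPSC arrays for Ccnd1 and for Ccnd3. Ccnd3 was at 6.00 on ESC against 4.92 to 5.65 on the iPSC arrays, a difference of 0.75 (SE 0.28, limma adjusted p = 0.928).

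The kinases and cyclins that Cip/Kip proteins bind showed small differences between the iPSC groups. The 6 tested genes differed by -0.07 to 0.06, with Ccna2, the cyclin of S phase, at 0.06 (SE 0.08), Ccne1 at -0.07 (SE 0.08), Cdk2 at 0.03 (SE 0.14) and Cdk1, the mitotic kinase, at -0.07 (SE 0.07) or, with the mean of its probes, 0.0023. The ESC array was above all iPSC arrays for 3 of the 6. Ccne1, which triggers entry into S phase with Cdk2, was at 6.90 on ESC and between 6.33 and 6.55 on the iPSC arrays (difference 0.43, SE 0.11). Cdk1 was at 3.71 on ESC against 3.28 to 3.42 (difference 0.37, SE 0.10). Neither passed the test, with a limma adjusted p of 0.928 for each. Of the 16 genes of S phase and mitosis, 8 lay higher and 8 lower in OSKH, with a median of 0.0018 and a range of -0.31 (Cdc6, a licensing factor of replication) to 0.19 (Aurkb, a mitotic kinase measured on 3 of 7 iPSC arrays). Mcm2, a subunit of the replicative helicase, had OSKH below OSK on every array at -0.17 (SE 0.07). ESC was above all iPSC arrays for 7 of these 16, where 18.5% of all features were. The direction against ESC depended on the scaling. Over all features 59.2% lay higher on ESC, with a median of 0.049 that was 0.010 with quantile normalization. Of the 16 genes, 14 lay higher on ESC than in the iPSC groups (median 0.12), but 7 with quantile normalization (median -0.0036). Of the 6 kinases and cyclins, 5 lay higher on ESC, but 3 with quantile normalization.

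**Figure D3:**
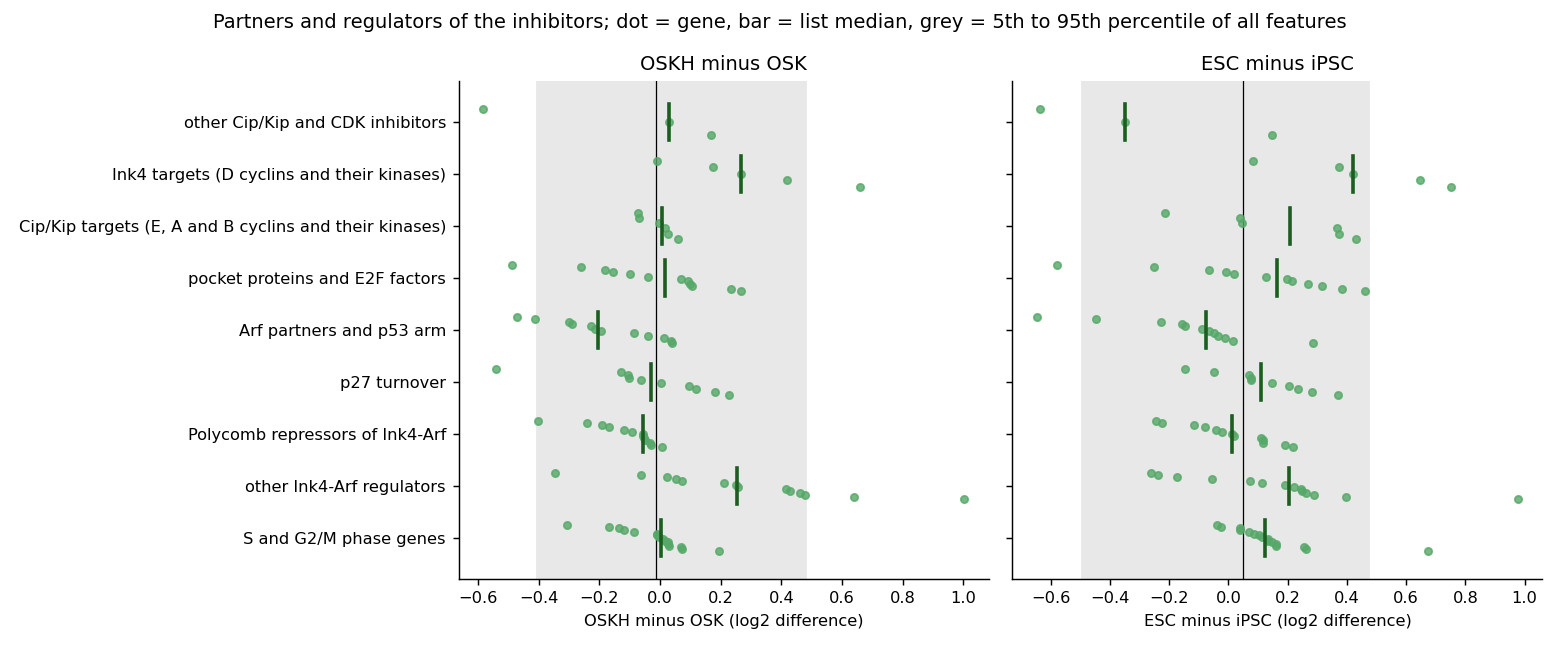
Log2 difference between OSKH and OSK (left) and between ESC and the mean of the iPSC groups (right) for each tested gene of the 9 lists, with a bar at the list median, a black line at the median of all features and grey from their 5th to 95th percentile. Most genes lie within the grey band in both comparisons, and no gene passed the test.

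Pocket proteins and E2F factors, which carry the signal of the inhibitors to transcription, were split evenly, with 6 of 12 higher and 6 lower and a median of 0.016. Rb1, the retinoblastoma gene, was at -0.34, -0.55, -0.41 and -0.95 on OSKH 1 to 4, at 0.08, -0.11 and -0.20 on OSK 1 to 3 and at -0.90 on ESC. Every OSKH array was below every OSK array, with a difference of -0.49 (SE 0.16, limma adjusted p = 0.732). The ESC array was among the lowest for Rb1, at -0.58 (SE 0.23) against the iPSC groups. E2f8, a repressor of the family, was the highest of the list in OSKH at 0.27 (SE 0.13).

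The genes through which Arf acts, Mdm2, p53 and its targets, lay lower in OSKH in 9 of 12 cases, with a median of -0.20 against -0.013 over all features, of which 46.3% lay higher. Mdm2, the ligase that Arf binds, was at 4.81, 4.99, 4.93 and 4.59 on OSKH 1 to 4 and at 5.47, 5.44 and 4.99 on OSK 1 to 3, with ESC at 5.06. OSK 3 was level with OSKH 2, so that the groups met, at -0.47 (SE 0.16, limma adjusted p = 0.732). Trp53, which encodes p53, differed by -0.09 (SE 0.11) and turned to 0.09 with slide row as a block. Npm1, the nucleolar protein that holds Arf, differed by 0.01 (SE 0.12). Sesn2, a stress target of p53, was the highest of the list at 0.04 (SE 0.23). Against ESC, Trp53inp1, a p53 target, had the lowest difference at -0.65 (SE 0.25, limma adjusted p = 0.928). Limma called 0 of the 12 in either comparison, with 2 at an unadjusted p under 0.05 between OSKH and OSK, Mdm2 and the cell death gene Bbc3 (-0.41), where all features gave 6.48%.

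For the turnover of p27, the 10 tested genes had a median of -0.03. Skp2, the F-box protein that marks p27 for degradation, was at 1.81, 2.12, 1.97 and 2.09 on OSKH 1 to 4, at 1.86, 1.82 and 1.78 on OSK 1 to 3 and at 2.14 on ESC. Its highest values were thus on ESC, OSKH 2 and OSKH 4, while OSKH 1 overlapped OSK, at a difference of 0.18 (SE 0.10, limma adjusted p = 0.834). Foxo1, a transcription factor that can induce Cdkn1b, differed by 0.23 (SE 0.17). Foxo3, another such factor, was dim, with 2 of 4 OSKH and 2 of 3 OSK arrays well above background, at -0.54 (SE 0.67).

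Among regulators of the Cdkn2a locus, 12 of 13 tested Polycomb genes lay lower in OSKH, with a median of -0.058 beside -0.013 over all features. Of all features, 46.3% lay higher in OSKH. Limma called 0 of the 13, with 0 at an unadjusted p under 0.05. With slide row as a block 8 of 13 lay lower, and without OSKH 2 or without OSKH 3 it was 9 of 13. Bmi1, the Polycomb subunit best known for repressing Ink4a and Arf, was at -1.03, -1.39, -1.61 and -0.90 on OSKH 1 to 4, at -0.97, -0.75 and -0.78 on OSK 1 to 3 and at -1.01 on ESC. OSKH 4 lay among the OSK arrays, and the difference was -0.40 (SE 0.18, limma adjusted p = 0.775). Ezh2, the histone methyltransferase of the other Polycomb complex, differed by 0.01 (SE 0.09). Of 14 other regulators, 12 lay higher in OSKH, with a median of 0.25; without OSKH 4 it was 9 of 14, with a median of 0.11. Id3, an inhibitor of helix-loop-helix factors of a family that includes repressors of Ink4a, was at 3.51, 2.54, 3.23 and 3.18 on OSKH 1 to 4, at 2.23, 2.29 and 1.80 on OSK 1 to 3 and at 2.86 on ESC. Every OSKH array was above every OSK array, at a difference of 1.00 (SE 0.24, limma adjusted p = 0.732). Id1, of the same family, was at 0.21 (SE 0.56) and turned to -0.28 without OSKH 4. Against ESC, Id1 had the highest difference of the list, 0.98 (SE 0.78). Twist1, a repressor of the locus, was dim at -0.35 (SE 0.38) and at 0.61 with slide row as a block.

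Fibroblasts and the feeder cells often used under pluripotent cells express Cdkn2a in culture, so their markers are given beside it. Of 10 fibroblast and feeder markers, 8 were tested and 7 of these lay higher in OSKH, with a median of 0.71 that was 0.0581 without OSKH 4. Their summed level was 6.19 to 6.54 in OSKH, 6.21 to 6.57 in OSK and 6.65 on ESC, most of it from Fn1, a matrix protein that other cells make too. Col1a1, the main collagen of fibroblasts, was highest on OSKH 4 (1.72) and ESC (1.34), which shared slide column 1. It lay between -1.86 and -1.01 on the other 6 arrays, OSK included. Thy1 was instead highest on OSKH 3 (3.44), with 2.50 on OSKH 4. Postn was well above background on 3 of 8 arrays, 0 of them OSK, and Pdgfrb and Lum on 2 each. Fn1, the 1 tested marker of this list that lay lower in OSKH (-0.15), was highest on OSK 1 at 6.49. Endoderm markers (3 of 6 tested) and trophectoderm markers (5 of 6 tested) had summed levels of 6.46 to 7.20 and 3.44 to 5.89 in OSKH, 6.98 to 7.31 and 3.08 to 4.02 in OSK and 6.97 and 4.17 on ESC. Most of the endoderm sum came from Sparc, at 6.46 to 7.03 in OSKH, 6.97 to 7.31 in OSK and 6.95 on ESC. Foxa2, at 4.03, and Krt8, at 3.13, were highest on OSKH 4, as were Cdx2, Krt7 and Krt18. Other markers of these lists were not: Dab2 was highest on OSKH 3 (-1.93), Gata3 on OSKH 1 (-2.33) and Sparc on OSK 3 (7.31). The part of these cell types in the results was not tested. Gata4, Gata6 and Sox17 were well above background on at most 2 arrays, and Elf5 on 0. Each of the former was highest on OSKH 4, at -0.77 for Gata4, 0.95 for Gata6 and 0.69 for Sox17. In these RNA samples, fewer cells that express a gene and less RNA per cell cannot be told apart.

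The genes whose profile over the 8 arrays was nearest to that of Cdkn2a were sought among 13063 other named genes well above background on all arrays. The measure was the root mean square distance between profiles centred on their own means, whose median was 0.45. Among the 6 nearest were Ceacam20 (distance 0.21), Cd300ld (0.22), Ankrd44 (0.22), Tal1 (0.22) and Vim (0.23). Vim, the intermediate filament protein vimentin, was at 4.23, 3.95, 3.66 and 4.21 on OSKH 1 to 4, at 4.61, 4.61 and 4.34 on OSK 1 to 3 and at 4.43 on ESC. Its groups did not overlap and the difference was -0.51 (SE 0.16); it was picked for this pattern. Cdkn2b, at a distance of 0.41, ranked 3109 in nearness to Cdkn2a. For Cdkn2b the 4 nearest were Olig2 (0.19), Fam83e (0.21), Tyro3 (0.21) and Fam20c (0.21), which shared the low OSKH 1 array. Tyro3, a receptor tyrosine kinase, was at 4.38 on OSKH 1 and between 4.77 and 5.54 on the other 7 arrays. With normexp, 1 of the 6 genes nearest to Cdkn2a, Cd300ld, and 1 of the 4 nearest to Cdkn2b, Olig2, remained among the nearest, so the names depend on the background correction.

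**Figure D4:**
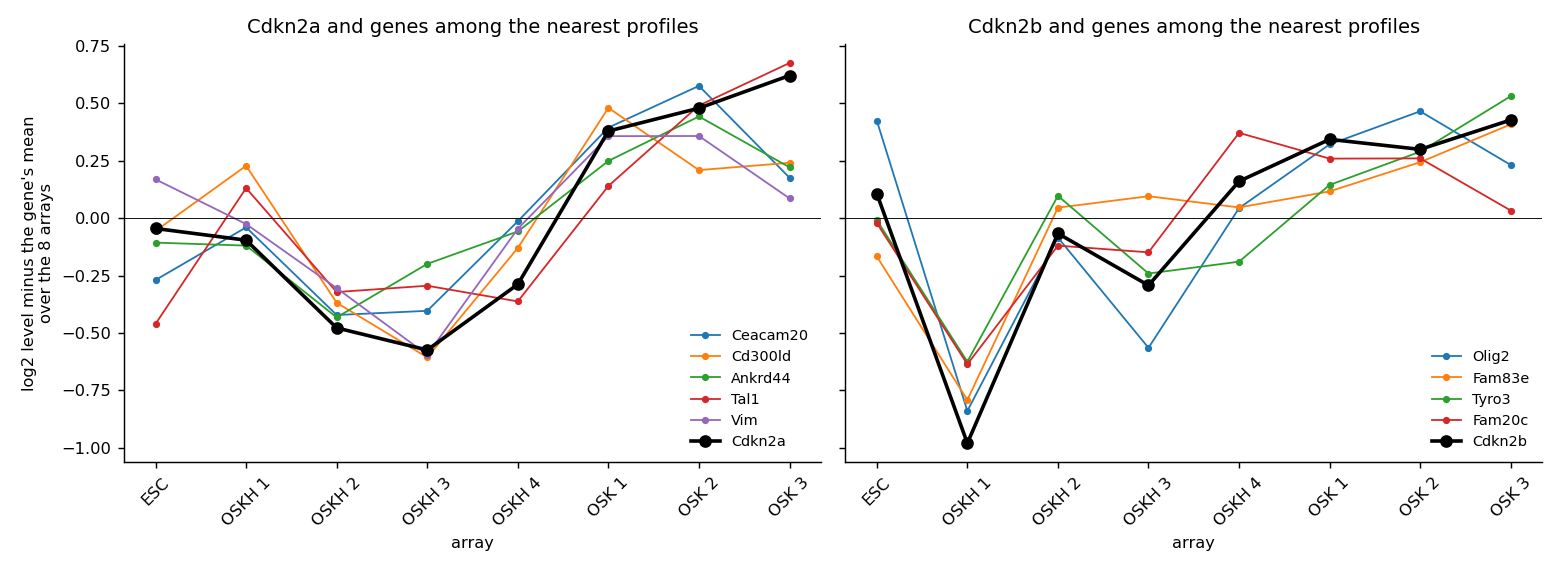
Profiles over the 8 arrays of Cdkn2a (left) and Cdkn2b (right), in black, with the genes named in the text among the nearest to each, as log2 level minus the gene's own mean; lines only join the points of a gene. Cdkn2a is lowest on OSKH 3 and highest on OSK 3, while Cdkn2b and its nearest genes are lowest on OSKH 1.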

How the data were processed

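RNA of 8 samples was labelled with Cy3, per the labels, and scanned arrays were read by Agilent Feature Extraction (version 11.5.1.1, per the file headers). The deposited intensity is its processed signal, with background subtracted and detrended but with no scaling across arrays, per the file headers. Other deposited columns are flags of 0 or 1. A deposited value table is on a log2 scale and differed from log2 of the processed signal by a fixed amount per array (100% of probes within 0.01; column medians -3.71 to -3.60), so its genes are not centred. Its software is not stated.

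Control spots (3671) and spots with an outlier flag were removed from each array, replicate spots of a probe were averaged, and 55667 probes were kept, 0 of them saturated. From log2 of each value the 75th percentile of its array was subtracted. RefSeq accessions, without versions, were looked up in the GRCm38.p6 gene table, which named 27650 probes; the array annotation is of mm9, so no probe position is given. A probe entered the test if well above background on 3 or more of the 8 arrays, with the brightest probe standing for a gene, which gave 22685 features. Sample titles gave the groups.

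Limma 3.58.1 (R 4.3.3) fitted group means over the 8 arrays, with p-values adjusted by Benjamini-Hochberg across features and called at 0.05. The fit was checked on simulated data. The files have no mean signal column, so the normexp alternative (offset 50) used the median signal and background. Same-numbered OSKH and OSK arrays share a slide column, per the file headers, and ESC and OSKH 4 share the remaining column. Same-numbered arrays deviated together from their group means (correlation across features 0.49, 0.21 and 0.37 for numbers 1 to 3). A pairing of the samples and an effect of the slide column cannot be told apart by this. The numbers were taken to pair the arrays, and a fit with number as a block was an alternative. The others were scaling, the deposited table, filters on dim probes, the mean of a gene's probes, slide row as a block and leaving out each iPSC array. The small number of arrays limits the precision.

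Genes were named by rule: the members, the other inhibitors and Ink4 targets, Trp53, Mdm2, Rb1, Cdk2 and Skp2, the highest and lowest difference of each further list, the nearest profiles and the neighbours of Cdkn2a. Bbc3, Col1a1 and the other marker genes outside this rule were named after their values were seen. Of the nearest profiles, 1 gene is not reported here. Members and lists were chosen with earlier results of these data known.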

Additional observations from a re-analysis of the deposited data

Results flagged for a closer look

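Groups of OSKH arrays were checked for the probes of the members and the genes named by rule. In 4 of 62 groups, 1 array lay far from the other 3 by Dixon's criterion, which flags about 1 group in 20 by chance. Ccnd1 was at 3.65 on OSKH 1, with the others between 4.32 and 4.44. Mcm2 was at 4.77 on OSKH 4, with the others between 4.89 and 4.90. Tal1 was at -2.92 on OSKH 1, with the others between -3.42 and -3.35. Fam83e was at -2.40 on OSKH 1, with the others between -1.56 and -1.51. None of the 7 probes of the inhibitors met the criterion, and groups of 3 arrays were not checked.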

How the results depend on the processing

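Cdkn2a was chosen on its OSKH minus OSK difference, and some alternatives, such as the deposited table, cannot move it. Nothing is therefore read from a kept sign of this gene. The OSKH minus OSK difference of Cdkn2a, by its brighter probe, kept its sign under all 16 alternatives, between -0.94 and -0.70. That of Cdkn2b ran from -0.80 to -0.20, the latter with slide row as a block, where OSKH 4 alone is set against OSK; leaving out single arrays gave -0.80 to -0.42. Cdkn1b ran from 0.24 to 0.63, and Cdkn2d turned to -0.056 without OSKH 1. With array number as a replicate block, which leaves out OSKH 4 and ESC, the differences were -0.88 for Cdkn2a, -0.80 for Cdkn2b, 0.36 for Cdkn1b and 0.06 for Cdkn2d; this block changed no call, and features at an unadjusted p under 0.05 rose from 1470 to 2326. Slide row as a block gave 47 called features between OSKH and OSK, and without the filter on dim probes 12 were called against ESC, in place of 0. Cdk1 turned to 0.0023 with the mean of its probes. Of 1691 values of the 55 other genes named by rule under alternatives, 87 had another sign than the main one.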
